A study of Mus musculus with 6 samples.

Results

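The genes described here are 41 mouse genes that interferons induce or that build the MHC class I pathway, followed in epididymal white adipose tissue (eWAT), the abdominal fat pad next to the epididymis. They were taken by symbol from a list that was chosen with earlier results of these data known. The array table held probes for 36 of them, 43 probes in all, out of 17086 named genes and 23556 probes. The 36 fall into 18 genes of the type I interferon signature, 7 interferon-gamma GTPases, 9 genes of class I antigen presentation and 2 other interferon regulatory factors, Irf1 and Irf8. Oas1a, Oas2, Bst2, Xaf1 and Ddx58 (now Rigi), all of the type I signature, had no row under their symbol and are not analysed here.

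Interferons are secreted proteins that bind receptors coupled to Janus kinases. Type I interferons switch on antiviral genes through a complex that holds Stat2 and Irf9 and binds the interferon-stimulated response element (ISRE), while interferon-gamma acts mainly through the gamma-activated site (GAS) and through Irf1. Class I molecules show peptides from inside the cell to T cells: the immunoproteasome cuts the peptides, the Tap transporter carries them into the endoplasmic reticulum, and tapasin loads them onto a heavy chain paired with beta-2-microglobulin. In adipose tissue these genes can be expressed by adipocytes as well as by immune and vascular cells.

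The study compared 3 db/db mice with 3 lean db/+ mice, all 10 weeks old. db/db mice are homozygous for a mutation of the leptin receptor gene, Lepr, and per the labels were obese and severely hyperglycemic with a modest rise of insulin, while db/+ mice carry the mutation on a single copy. Per the file headers, every mouse had received vehicle, and each 2-colour Agilent array set the RNA of an individual mouse, in Cy5, against a pool of RNA from lean vehicle-treated eWAT, in Cy3. How many mice went into the pool, and the strain background, were not given in the sources used here. Obesity and diabetes come together in this model, and the whole fat pad was profiled, so that fewer cells of a type and less RNA per cell cannot be told apart in any value below.

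Between 23355 and 23506 probes were measured per array and precision is limited by how few arrays there are. Lepr itself had a log2 fold change of -0.12 ± 0.31 (SE, limma adjusted p = 0.864), and where its probe lies relative to the mutation is not known here, so it does not check the labels. The log2 ratios of all probes had an SD between 0.23 and 0.28 on the db/+ arrays and between 0.53 and 0.68 on the db/db arrays. The ratios of db/+ replicates 1 and 2 correlated at -0.38 over all probes. The dyes are stated in the labels and the direction was kept. Replicates 2 and 3 of db/db stood apart: their ratios correlated at 0.85 with each other and at 0.32 and 0.29 with those of replicate 1. The median log2 ratio of 11 genes of the epididymis epithelium was 4.02 and 4.32 in these replicates and -1.90 in the remaining db/db mouse, and the lean mice gave 0.74, 0.06 and -1.87. Results are therefore also given for db/db replicate 1 alone and with the epididymis median as a covariate.

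RefSeq gave a promoter window, from 250 bases before to 50 bases after the start of transcription, for 28 of the 36 measured genes (build GRCm38.p6). The 6 windows below were chosen because their genes carry the results: Gbp3 and Tap1 passed the test, Rsad2 had the largest fold change of the type I signature, Irf1 is the regulator of the gamma response, and Irf8 and Oasl1 were the members with the largest positive fold changes. Capitals mark matches to the core of the ISRE (GAAA, any 2 bases, GAAA) or to the GAS, TTCNNNGAA, on either strand. The windows lie at chr3:142559794-142560093 (plus strand) for Gbp3, chr12:26456403-26456702 (minus strand) for Rsad2, chr11:53769764-53770063 (plus) for Irf1, chr8:120736108-120736407 (plus) for Irf8, chr17:34187306-34187605 (plus) for Tap1 and chr5:114922990-114923289 (plus) for Oasl1. Gbp3, Irf1 and Irf8 have a second annotated start, whose window held neither motif.
Gbp3: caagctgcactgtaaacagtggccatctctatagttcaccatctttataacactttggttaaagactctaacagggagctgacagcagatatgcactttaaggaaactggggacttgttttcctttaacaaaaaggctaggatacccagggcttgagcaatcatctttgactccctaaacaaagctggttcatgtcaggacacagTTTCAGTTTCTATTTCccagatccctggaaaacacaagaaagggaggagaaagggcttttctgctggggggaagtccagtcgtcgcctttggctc
Rsad2: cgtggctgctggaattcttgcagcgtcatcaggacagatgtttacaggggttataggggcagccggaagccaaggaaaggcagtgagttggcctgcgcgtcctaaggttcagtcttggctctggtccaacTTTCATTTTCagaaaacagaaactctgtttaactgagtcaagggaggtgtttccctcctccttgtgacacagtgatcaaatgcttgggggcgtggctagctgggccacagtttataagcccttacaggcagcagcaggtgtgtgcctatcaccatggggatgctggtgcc
Irf1: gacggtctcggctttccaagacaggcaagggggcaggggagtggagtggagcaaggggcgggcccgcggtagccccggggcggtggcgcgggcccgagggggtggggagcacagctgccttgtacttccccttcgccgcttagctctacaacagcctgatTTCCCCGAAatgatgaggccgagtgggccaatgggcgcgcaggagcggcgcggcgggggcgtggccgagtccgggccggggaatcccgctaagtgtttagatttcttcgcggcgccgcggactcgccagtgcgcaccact
Irf8: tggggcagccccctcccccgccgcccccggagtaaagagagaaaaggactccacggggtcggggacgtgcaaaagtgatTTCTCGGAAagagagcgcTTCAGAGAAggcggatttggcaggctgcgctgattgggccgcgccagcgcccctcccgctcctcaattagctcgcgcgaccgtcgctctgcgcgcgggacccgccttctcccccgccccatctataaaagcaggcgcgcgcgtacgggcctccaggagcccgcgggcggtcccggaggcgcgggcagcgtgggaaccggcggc
Tap1: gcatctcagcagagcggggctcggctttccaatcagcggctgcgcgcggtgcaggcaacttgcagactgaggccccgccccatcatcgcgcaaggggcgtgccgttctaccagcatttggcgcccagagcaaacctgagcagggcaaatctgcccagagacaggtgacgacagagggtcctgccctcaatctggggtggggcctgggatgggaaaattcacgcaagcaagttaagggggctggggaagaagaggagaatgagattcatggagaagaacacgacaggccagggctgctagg
Oasl1: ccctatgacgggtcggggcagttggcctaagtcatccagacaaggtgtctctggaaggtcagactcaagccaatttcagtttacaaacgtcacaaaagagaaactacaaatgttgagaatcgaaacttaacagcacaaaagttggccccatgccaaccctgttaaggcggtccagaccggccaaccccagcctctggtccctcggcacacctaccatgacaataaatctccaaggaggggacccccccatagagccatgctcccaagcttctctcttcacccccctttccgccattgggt

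The ISRE core was found in 11 of the 28 genes with a window (39.3%), against 3.99% of the 27025 genes with a window in all. It stood in the windows of 6 of 13 type I signature genes, 4 of 5 interferon-gamma GTPases, 1 of 8 class I genes (B2m) and 0 of 2 other regulatory factors. The GAS was found in 6 of the 28 genes (21.4%), against 9.55% of all genes, and both Irf1 and Irf8 had it. In Gbp3 the capitals cover 2 matches to the ISRE core that overlap. The window of Tap1 shares 275 bases with that of Psmb9, the immunoproteasome gene on the opposite strand, and neither window held a motif. A match describes letters only, and no match says nothing about other positions.

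Across the 36 measured genes, levels in db/db eWAT were mostly below those in lean eWAT. The log2 fold change (db/db minus db/+) was below 0 for 32 genes (88.9%), against 50.4% of the 17024 genes tested, and above 0 for 4 (45.4% of all genes), namely Oasl1, Irf8, Tapbp and Zbp1. Its median was -0.43, against 0 for all genes. The members were chosen with earlier results of these data known and were measured in the same mice. The shares here therefore describe the list and do not count separate observations. At a limma adjusted p under 0.05, Gbp3, Tap1 and Tap2 fell. They are 8.33% of the members, against 3.81% of all genes called lower and 6.76% called in either direction, and 0 members rose, against 2.95% of all genes called higher. The number of members called was 0 on leaving out any db/+ mouse, 11 without db/db replicate 1 and 1 without db/db replicate 2. With the epididymis covariate 2 members were called lower and 1 higher: Tap2 and Ifih1 (adjusted p = 0.0373 and 0.0476) and, on the higher side, Oasl1 (1.45, adjusted p = 0.0361), while Gbp3 and Tap1 missed the threshold (adjusted p = 0.0876 and 0.0697). With db/db replicate 1 alone 4 were called lower and 1 higher, Irf8, and Gbp3, Tap1 and Tap2 all missed the threshold. At an unadjusted p under 0.05, 14 members were lower (38.9% against 13.3% of all genes) and 2 were higher (9.95% of all genes were). All 3 db/db ratios lay below all 3 db/+ ratios for 17 members (47.2% against 14.7%) and above them for 2, Oasl1 and Irf8 (5.56% against 11.4%).

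**Figure D1:**
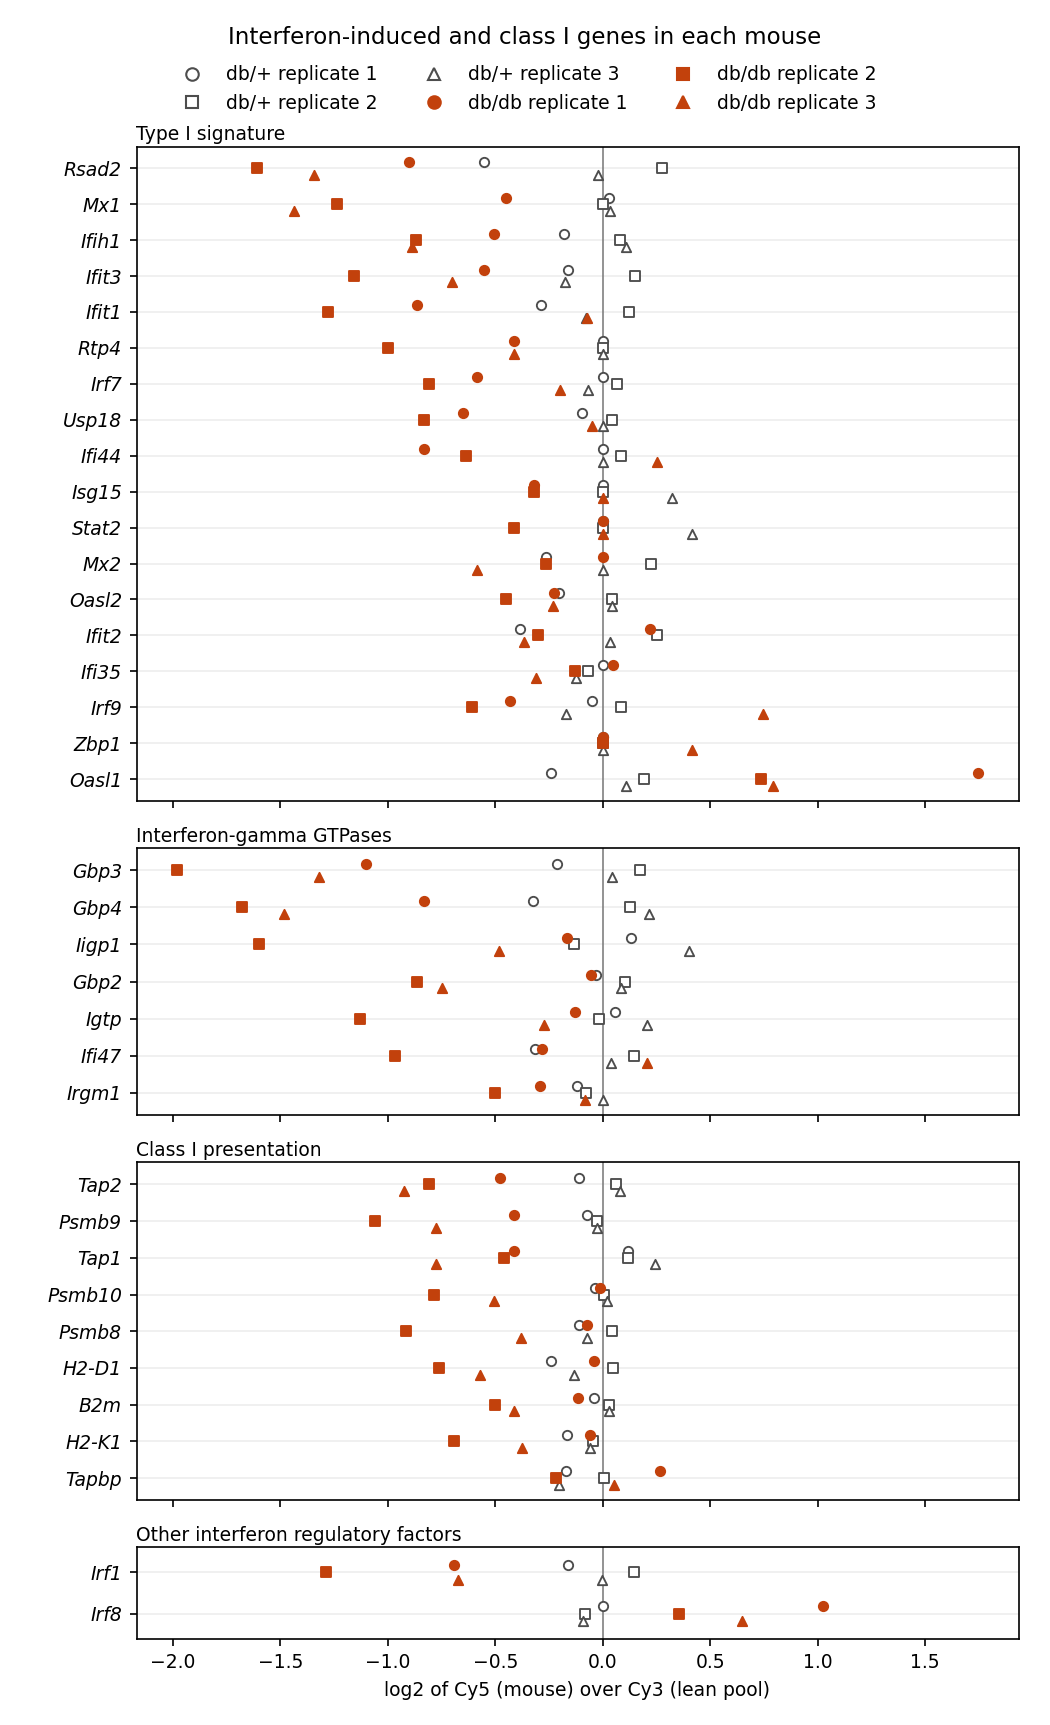
Log2 of the mouse (Cy5) over the lean pool (Cy3) intensity for each of the 36 measured genes, by group; every point is 1 mouse, open grey for db/+ and filled orange for db/db, with the shape giving the replicate. The filled points lie to the left of the open ones for 17 genes and to the right for Oasl1 and Irf8, and db/db replicate 2 (squares) is the lowest filled point in 23 of the 32 genes with a negative fold change.

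The interferon-gamma GTPases restrict pathogens that live in vacuoles. Gbp3, a guanylate-binding protein, had log2 ratios of -0.21, 0.17 and 0.04 in db/+ replicates 1 to 3 and of -1.10, -1.98 and -1.32 in db/db replicates 1 to 3. Every db/db mouse lay below every db/+ mouse by far more than the spread among the lean mice. Gbp3 fell by 1.47 ± 0.26 on the log2 scale (SE, n = 3 per group, limma adjusted p = 0.0464), to 36.1% of the db/+ level. Its Cy5 intensity ran from 3.32 to 4.44 in db/+ and from 0.81 to 1.70 in db/db. This call was close to the threshold: it held under 8 of 18 alternative settings, over which the adjusted p ran from 0.0026 to 0.258 and the log2 fold change from -1.92 to -1.10.

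Gbp4, of the same family, had ratios of -0.33, 0.13 and 0.21 in db/+ and -0.83, -1.68 and -1.48 in db/db. The groups did not overlap, and the log2 fold change of -1.34 ± 0.28 missed the threshold (adjusted p = 0.063). Iigp1, an immunity-related GTPase, had ratios of 0.13, -0.14 and 0.40 in db/+ and -0.17, -1.60 and -0.49 in db/db. Here replicate 1 of db/db came close to the lowest lean mouse and replicate 2 lay far below, and the log2 fold change was -0.88 ± 0.42 (adjusted p = 0.294). Igtp, a GTPase of the Irg family, followed the same order, with -0.13, -1.13 and -0.27 in db/db against 0.05, -0.02 and 0.21 in the lean mice. Its log2 fold change was -0.59 ± 0.29 (adjusted p = 0.303). Gbp2 had -0.06, -0.86 and -0.75 in db/db against -0.03, 0.10 and 0.09, so that replicate 1 lay at the lean level (log2 fold change -0.61 ± 0.23, adjusted p = 0.215). The groups overlapped for the remaining 2, Irgm1 (-0.23 ± 0.12) and Ifi47 (-0.30 ± 0.34). Probes of related Gbp genes and of related Irg genes can share sequence, so the split of signal within each family is uncertain.

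All 7 GTPases had a negative fold change, 1 of them called, and their median was -0.61. The median ratio of the 7 genes was -0.29, -1.13 and -0.49 in db/db replicates 1 to 3 and -0.12, 0.10 and 0.09 in db/+. With only db/db replicate 1 set against the lean mice the median fold change was -0.24, and with the epididymis median as a covariate -0.37.

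The type I signature held antiviral effectors, sensors and their regulators. Rsad2, which encodes the antiviral enzyme viperin, had ratios of -0.55, 0.28 and -0.02 in db/+ and -0.90, -1.61 and -1.35 in db/db. The db/db mice were all lower, although db/+ replicate 1 was itself low. The log2 fold change was -1.19 ± 0.29 (adjusted p = 0.0861), which puts db/db at 43.9% of db/+. Mx1, a dynamin-like GTPase that blocks influenza viruses, was nearly equal in the lean mice at 0.03, 0.00 and 0.03 and stood at -0.45, -1.24 and -1.44 in db/db. The groups lay apart, the db/db mice differed widely among themselves, and the log2 fold change was -1.06 ± 0.28 (adjusted p = 0.0977).

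Ifih1, which encodes the RNA sensor MDA5, had ratios of -0.18, 0.08 and 0.11 in db/+ and -0.51, -0.87 and -0.89 in db/db. Its fold change of -0.76 ± 0.14 narrowly missed the threshold (adjusted p = 0.0514), and 8 of 18 alternatives put it past. Ifit3, whose protein belongs to a family that binds foreign RNA, had -0.55, -1.16 and -0.70 in db/db against -0.16, 0.15 and -0.18 in db/+ (-0.74 ± 0.19, adjusted p = 0.0979). Ifit1 and Ifit2, its neighbours in the family, overlapped between the groups, at -0.66 ± 0.34 and -0.11 ± 0.24. Ifit1 was low in db/db replicates 1 and 2, at -0.86 and -1.28, and at -0.07 in replicate 3.

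Irf7, the transcription factor that amplifies type I interferon production, had ratios of 0.00, 0.06 and -0.07 in db/+ and -0.58, -0.81 and -0.20 in db/db. On this, its brighter probe, all db/db mice were lower, least so replicate 3. The log2 fold change was -0.53 ± 0.17 (adjusted p = 0.145). Irf9, which gives the complex its contact with the ISRE, ranked the mice of each group in the same order but with a wider spread in db/db: it stood at -0.43, -0.61 and 0.75 in db/db against -0.05, 0.09 and -0.17 in db/+, so that 2 db/db mice were below and 1 above the lean range (-0.05 ± 0.39, adjusted p = 0.99). Stat2, a partner of Irf9, was too dim to judge, with Cy5 intensities of 0.03 and 0.04 throughout in steps of 0.01 (-0.28 ± 0.18, adjusted p = 0.439).

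Oasl1 went the other way from most of the signature. This gene encodes a protein related to oligoadenylate synthetases and known in mice for holding back translation of Irf7. Its ratios were -0.24, 0.19 and 0.11 in db/+ and 1.75, 0.74 and 0.79 in db/db. All db/db mice were higher, and replicate 1 by the most, with a log2 fold change of 1.07 ± 0.32 (adjusted p = 0.131), or 210% of the db/+ level. It was dim, with Cy5 intensities from 0.11 to 0.16 in db/+ and from 0.20 to 0.47 in db/db. Oasl2, a related gene, had -0.23, -0.45 and -0.23 in db/db against -0.21, 0.04 and 0.04 (-0.26 ± 0.10, adjusted p = 0.229).

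Of the other members of the signature, Rtp4 had a fold change of -0.61 ± 0.18, Usp18, which encodes an enzyme that removes Isg15 from proteins and restrains the type I receptor, -0.49 ± 0.22, Ifi44 -0.43 ± 0.31, Isg15 -0.32 ± 0.14, Mx2 -0.27 ± 0.20, Ifi35 -0.07 ± 0.10 and Zbp1 0.14 ± 0.13. The groups did not overlap for Rtp4 and overlapped for the others. Isg15, Stat2, Rtp4, Zbp1 and Mx2 had mean Cy5 intensities under 0.1, where the 0.01 steps of the deposited intensities move a ratio coarsely. In all, 16 of the 18 genes had a negative fold change, 6 were lower and 1 higher at an unadjusted p under 0.05, and 0 passed the adjusted threshold. The median fold change was -0.38, it was -0.58 without db/db replicate 3, -0.42 with db/db replicate 1 alone and -0.43 with the epididymis covariate.

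In the class I pathway the Tap transporter carried the calls. Tap1, which encodes a subunit of this peptide pump, had ratios of 0.12, 0.12 and 0.24 in db/+ and -0.42, -0.46 and -0.78 in db/db. The groups lay well apart, and Tap1 fell by 0.71 ± 0.11 (adjusted p = 0.0379), to 61.2% of db/+. Its signal was modest, with a Cy5 intensity of 0.13 in every lean mouse and between 0.07 and 0.09 in db/db. Tap2, the partner subunit, was measured on a brighter probe, from 3.49 to 3.61 in db/+ and from 1.99 to 2.68 in db/db. Its ratios were -0.11, 0.06 and 0.08 against -0.48, -0.81 and -0.92, and it fell by 0.75 ± 0.14 (adjusted p = 0.0482), to 59.6% of db/+. In the main fit both subunits thus fell by like amounts on separate probes. With an offset of 0.05 on both channels the log2 fold changes were -0.47 for Tap1 and -0.73 for Tap2. On the Cy5 channel alone they were -0.46 and -0.70. At the intensities of Tap1, steps of 0.01 move a ratio coarsely, so the likeness of the amounts is uncertain. The call of Tap1 held under 10 and that of Tap2 under 9 of 18 alternatives, over which the adjusted p ran from 0.0037 to 0.193 for Tap1 and from 0.0021 to 0.217 for Tap2.

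Psmb9, an inducible catalytic subunit of the immunoproteasome whose promoter window overlaps that of Tap1, had ratios of -0.07, -0.02 and -0.03 in db/+ and -0.42, -1.06 and -0.77 in db/db. The lean mice were nearly alike and every db/db mouse was lower, with a log2 fold change of -0.71 ± 0.17 (adjusted p = 0.0845). Psmb8 and Psmb10, the other inducible subunits, stood near the lean level in db/db replicate 1, at -0.07 and -0.01, and below it in replicates 2 and 3, at -0.91 and -0.38 for Psmb8 and -0.79 and -0.50 for Psmb10. Their fold changes were -0.41 ± 0.23 (adjusted p = 0.363) and -0.43 ± 0.21 (adjusted p = 0.296).

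B2m, the light chain of every class I molecule, had ratios of -0.04, 0.03 and 0.03 in db/+ and -0.12, -0.50 and -0.42 in db/db. The groups did not overlap, though replicate 1 lay close to the lean mice, and the log2 fold change was -0.35 ± 0.11 (adjusted p = 0.15). The heavy chains H2-K1 and H2-D1 overlapped between the groups. H2-K1 had -0.06, -0.69 and -0.38 in db/db against -0.17, -0.04 and -0.06 (-0.29 ± 0.17, adjusted p = 0.399), and H2-D1 had -0.04, -0.76 and -0.57 against -0.24, 0.05 and -0.14 (-0.35 ± 0.21, adjusted p = 0.41). With db/db replicate 1 alone the sign of both turned, to 0.03 and 0.07. Class I heavy chains are close in sequence, and the deposited data do not separate their cross-hybridisation. Tapbp, which encodes tapasin, had a fold change of 0.16 ± 0.14 (adjusted p = 0.551).

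Over the 9 class I genes, 8 had a negative fold change, 2 fell past the threshold, and the median was -0.41. That median was -0.25 without db/db replicate 2, -0.02 with db/db replicate 1 alone and -0.21 with the epididymis covariate. The median ratio of the 9 genes was -0.07 in db/db replicate 1, inside the db/+ range of -0.11 to 0.03, and -0.76 and -0.50 in replicates 2 and 3. The type I signature and the GTPases differed from this in that replicate 1, at -0.42 and -0.29, lay below all db/+ medians, which began at -0.07 and -0.12. A difference between the 3 gene groups was not tested.

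**Figure D2:**
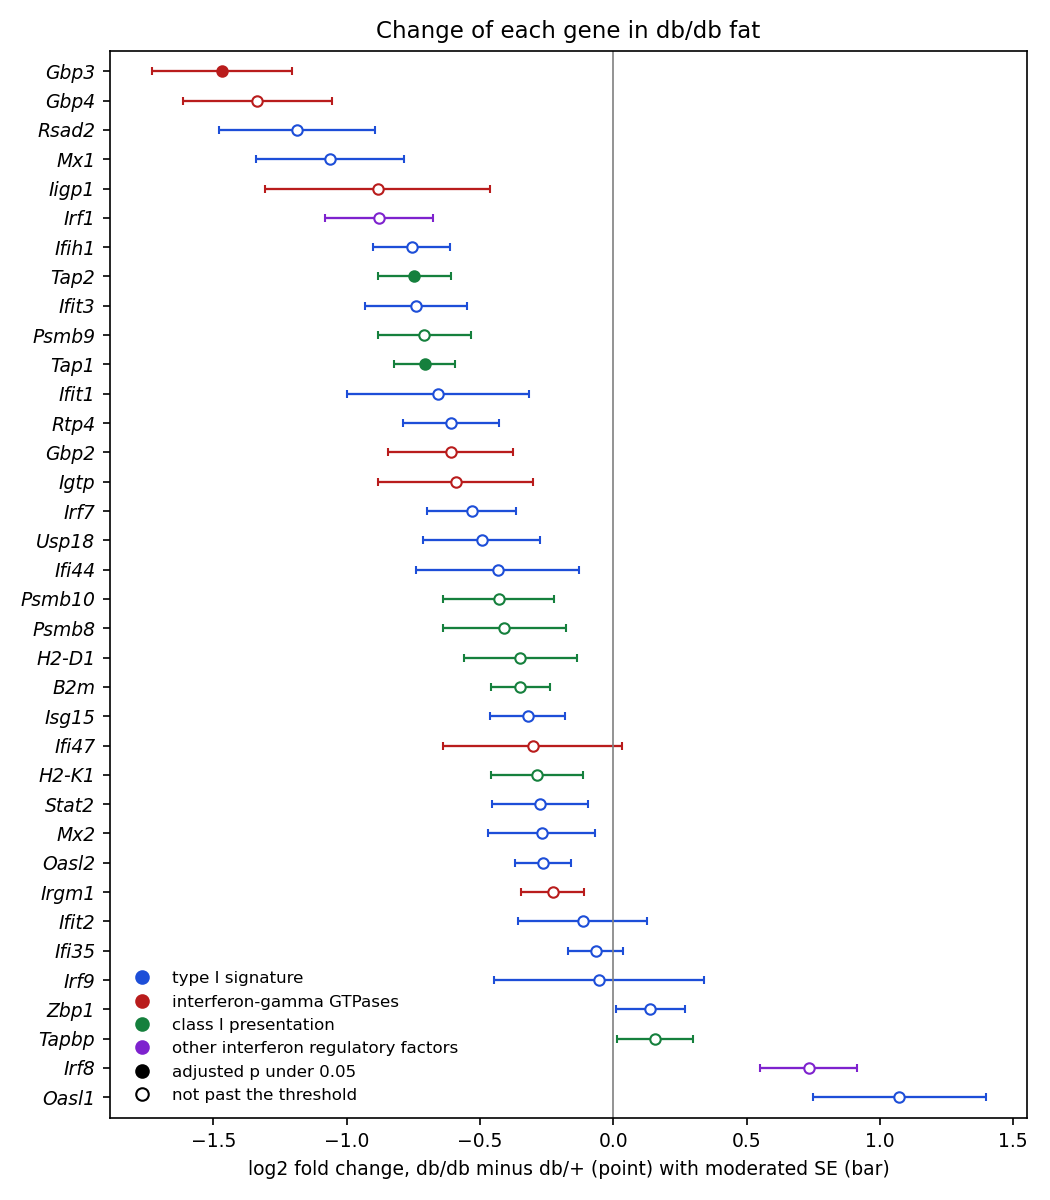
Log2 fold change of each of the 36 measured genes, db/db minus db/+, with the moderated standard error from limma as a bar; colour gives the gene group, and filled points have an adjusted p under 0.05. Gbp3, Tap1 and Tap2 are the filled points, 32 genes lie left of 0, and Oasl1 and Irf8 lie farthest to the right.

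The 2 other interferon regulatory factors lay on opposite sides of 0. Irf1, which interferon-gamma induces and which then drives class I and GTPase genes, had ratios of -0.16, 0.14 and -0.01 in db/+ and -0.69, -1.29 and -0.67 in db/db. The groups did not overlap, and the log2 fold change was -0.88 ± 0.20 (adjusted p = 0.076), to 54.4% of db/+. Irf8, a factor needed by macrophages and dendritic cells, had 0.00, -0.08 and -0.09 in db/+ and 1.03, 0.35 and 0.65 in db/db. All db/db mice were higher, with a log2 fold change of 0.73 ± 0.18 (adjusted p = 0.0882), or 166% of db/+. In both Irf8 and Oasl1 the highest value was that of db/db replicate 1, which also had the highest macrophage marker median.

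The db/db mice did not share the low values evenly. Among the 32 members with a negative fold change, db/db replicate 2 had the lowest ratio in 23, replicate 3 in 7 and replicate 1 in 1, and replicate 2 was the highest in 0. Among all genes with a negative fold change, replicate 2 was the lowest in 23.1%, replicate 3 in 45.3% and replicate 1 in 19.2%. The number of members with a ratio below 0 was 28, 33 and 27 in db/db replicates 1 to 3, and 24, 7 and 13 in db/+. The lean replicate 1, with 24 of 36 below 0, thus stood nearer to db/db in this count than the other lean mice, while its median ratio over the members was -0.10, against -0.29, -0.80 and -0.38 in db/db.

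For 7 members, B2m, H2-D1, H2-K1, Ifih1, Irf7, Mx2 and Usp18, the array carried a second probe, and 0 of them had fold changes of opposite sign on their probes. The second B2m probe gave ratios of -0.22, -0.80 and -0.65 in db/db against -0.21, 0.06 and -0.20 in db/+, the same order of the db/db mice as on the brighter probe. When each of 23450 probes was tested on its own, 1 of the 43 member probes was called, that of Tap1, among 1275 probes in all. In that fit the second probes of Irf7, Usp18 and H2-D1, with mean Cy5 under 0.1, gave log2 fold changes of -0.20 ± 0.18, -0.19 ± 0.18 and -0.06 ± 0.10. That of Irf7 had ratios of 0.22, -0.32 and -0.32 in db/db against 0.00, 0.19 and 0.00 in db/+. There db/db replicate 1 lay above every lean mouse. The second probes of B2m, Ifih1 and H2-K1 gave -0.44 ± 0.18, -0.67 ± 0.12 and -0.31 ± 0.17. That of Mx2 gave -0.33 ± 0.31 and was also dim, with a mean Cy5 of 0.02 in db/+ and 0.0133 in db/db. Its ratio differed from 0 only in db/db replicate 1. The sign on this probe therefore rests on 1 mouse, at intensities where steps of 0.01 move a ratio coarsely.

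The rest of the pathway was read from lists of ligands, transducers, sensors and further targets, in which 7 genes passed the threshold. These lists held 2, 9, 9, 23 and 13 tested genes. Of all genes tested 6.76% were called, 3.81% lower and 2.95% higher. Of 9 interferon ligands 2 had a probe, both at the dim end. Ifng, which encodes interferon-gamma, fell by 0.26 ± 0.03 (adjusted p = 0.0175), with ratios of 0.00 in every lean and -0.26 in every db/db mouse. Its mean Cy5 intensity was 0.0633 in db/+ and 0.05 in db/db, so this call without spread rests on a difference of about 1 step of 0.01, and it held under 10 of 18 alternatives. Ifna5 had a fold change of -0.04 ± 0.12 (adjusted p = 0.874).

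Among 9 measured receptors and signal transducers, 1 fell and 0 rose. Socs1, the feedback inhibitor that interferon signalling induces against its own kinases, had ratios of 0.05, 0.00 and 0.10 in db/+ and -0.64, -0.75 and -0.72 in db/db. The db/db mice were close to each other and far below the lean mice, and Socs1 fell by 0.75 ± 0.05 (adjusted p = 0.0073), a call that held under 15 of 18 alternatives. The receptor chains Ifnar1 and Ifnar2 overlapped between the groups, at 0.04 ± 0.13 and -0.09 ± 0.19, and Jak2, a kinase of the interferon-gamma receptor, had 0.38 ± 0.08 (adjusted p = 0.0694).

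Among 9 measured genes of nucleic acid sensing, 1 rose and 1 fell. Tbk1, the kinase that activates Irf3, rose by 0.32 ± 0.06 (adjusted p = 0.049), and Irf3, which starts transcription of type I interferon, fell by 0.32 ± 0.05 (adjusted p = 0.0384). The call of Tbk1 held under 3 of 18 alternatives (adjusted p from 0.0146 to 0.396) and that of Irf3 under 7 (0.002 to 0.481), with a fold change of Irf3 as small as -0.084. Irf5, another regulatory factor, strong in myeloid cells, had ratios of 1.90, 0.93 and 0.97 in db/db against -0.16, 0.11 and 0.10, with a fold change of 1.25 ± 0.30 (adjusted p = 0.0812). The order of the db/db mice, with replicate 1 the highest, was that of Oasl1. The median of this list was 0.10, on the other side of 0 from the members.

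Of 23 other interferon-induced genes with a probe, 2 fell, 0 rose, 19 had a negative fold change and the median was -0.58. Cxcl9, a chemokine that interferon-gamma induces and that draws T cells, had ratios of -0.25, 0.23 and 0.06 in db/+ and -1.71, -2.37 and -2.03 in db/db. It fell by 2.05 ± 0.21 (adjusted p = 0.0192), more than any member, and the call held under 10 of 18 alternatives. Cmpk2, a mitochondrial nucleotide kinase whose gene neighbours Rsad2, fell by 0.95 ± 0.16 (adjusted p = 0.0425), also under 10 of 18. Tgtp1, an interferon-gamma GTPase, had a fold change of -1.67 ± 0.36 (adjusted p = 0.0675). Cxcl10, the chemokine related to Cxcl9, had -0.89, -0.58 and 0.19 in db/db against -0.11, 0.00 and 0.12, an overlap, with a fold change of -0.43 ± 0.30 (adjusted p = 0.463).

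Of 13 other genes of the class I pathway with a probe, 1 fell, 0 rose and the median fold change was -0.23. Erap1, the peptidase that trims peptides in the endoplasmic reticulum, had ratios of 0.08, 0.12 and 0.13 in db/+ and -0.59, -0.72 and -0.36 in db/db and fell by 0.67 ± 0.10 (adjusted p = 0.0336), a call that held under 11 of 18 alternatives. Hspa5, a general chaperone of the endoplasmic reticulum, stood at 0.22, 0.97 and 1.09 in db/db against 0.01, 0.02 and 0.05, higher in every db/db mouse (0.73 ± 0.25, adjusted p = 0.167). The constitutive proteasome subunits Psmb5, Psmb6 and Psmb7, which Psmb8, Psmb9 and Psmb10 replace in the immunoproteasome, had fold changes of 0.24 ± 0.08, -0.13 ± 0.08 and -0.23 ± 0.08, with 0 past the threshold.

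**Figure D3:**
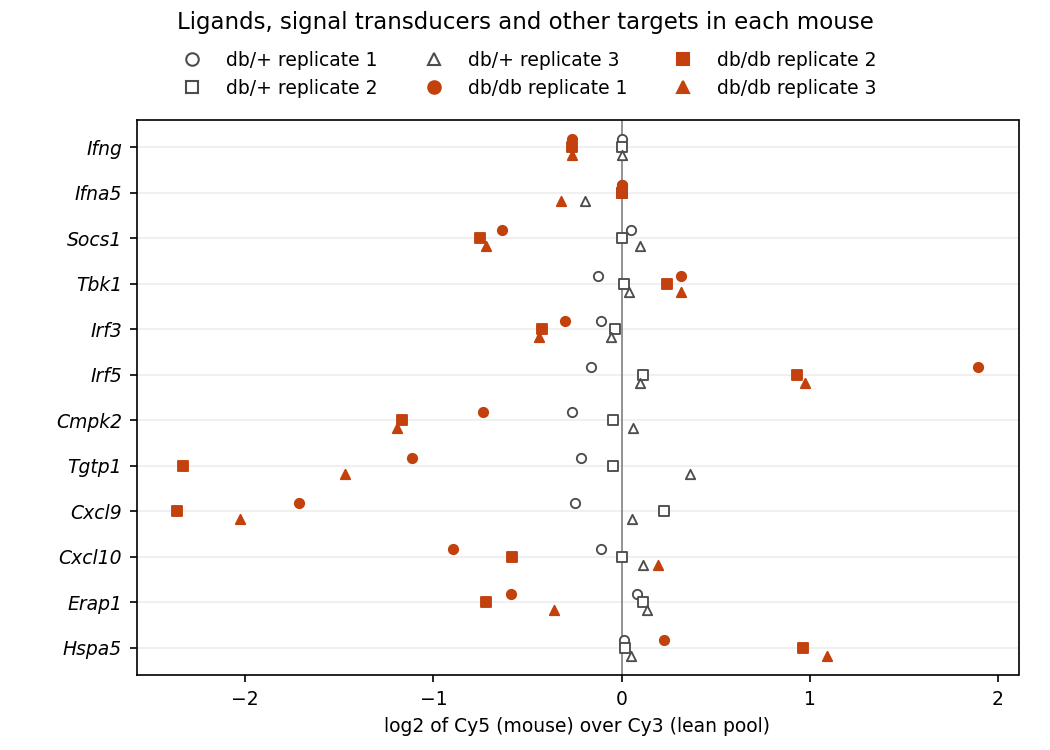
Log2 of the mouse (Cy5) over the lean pool (Cy3) intensity for the ligands, transducers, sensors and targets described outside the 36 members; every point is 1 mouse, open grey for db/+ and filled orange for db/db, with the shape giving the replicate. Socs1, Cxcl9, Cmpk2 and Erap1 show filled points left of all open ones, Tbk1 and Irf5 right of them, and Ifng shows ratios of 0.00 and -0.26 without spread.

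Markers of the cells in the fat pad moved between the groups as well. The summed Cy5 intensity of 10 macrophage markers ran from 26.1 to 36.6 in db/+ and from 38.3 to 81.7 in db/db. Gpnmb alone ran from 0.99 to 1.39 in db/+ and from 15.36 to 28.69 in db/db. The gap between these sums therefore rests largely on that gene and does not describe the markers as a set. Of the 10, 3 rose and 0 fell, where 2.95% of all genes were called higher. The 3 were Gpnmb (3.21 ± 0.16), Itgax (2.51 ± 0.35) and Cd68 (1.99 ± 0.30), named after their values were seen, while Cd163, a marker of resident macrophages, had -0.82 ± 0.20 (adjusted p = 0.0901) and Csf1r 0.30 ± 0.35 (adjusted p = 0.622). The median ratio of the macrophage markers was 1.17, 0.44 and 0.76 in db/db replicates 1 to 3, so the mouse with the lowest macrophage median, replicate 2, also had the lowest median of the 36 genes. Part of the interferon list is expressed in macrophages, and the part of these cells in the result was not tested.

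Adipocyte and endothelial markers were lower in db/db. The summed Cy5 intensity of 6 adipocyte markers measured on all arrays was between 46.2 and 53.2 in db/+ and between 19.4 and 34.0 in db/db. Of the 7 markers tested 3 fell, where 3.81% of all genes were called lower. The 7 endothelial markers summed to between 16.4 and 22.1 in db/+ and to between 8.01 and 14.7 in db/db, and 1 fell, Egfl7 (-1.01 ± 0.17). Their median ratios were -0.49, -0.82 and -1.22 for adipocytes and -0.32, -0.52 and -0.94 for endothelium in db/db replicates 1 to 3, lowest in replicate 3 and not in replicate 2. Their part in the lower interferon-induced genes was not tested.

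Markers of lymphocytes, the main makers of interferon-gamma, were near the lower end of the scale. The 12 T and NK cell markers summed to between 1.81 and 2.15 in db/+ and to between 1.57 and 1.82 in db/db, 9 of them with a mean Cy5 under 0.1, and 0 passed the threshold, with 2 lower at an unadjusted p under 0.05. Gzma, a granule protease of cytotoxic cells, had ratios of -0.37, -1.31 and -0.58 in db/db against 0.06, -0.07 and 0.03 (-0.76 ± 0.26, adjusted p = 0.17), and Nkg7 -0.01 ± 0.07. The 5 B cell markers summed to between 0.58 and 0.83 in db/+ and to between 0.63 and 0.77 in db/db. The 6 dendritic cell markers summed to between 2.23 and 2.45 in db/+ and to between 1.52 and 2.02 in db/db. Zbtb46 alone made up most of these sums, with 1.75 to 1.84 in db/+ and 1.15 to 1.67 in db/db. Of the 6 markers, 3 had a mean Cy5 under 0.1 and 3 had a negative fold change, and the median fold change of the 6 was -0.17. Zbtb46 and Batf3, the brightest of them, had -0.41 ± 0.18 (adjusted p = 0.261) and -0.35 ± 0.14 (adjusted p = 0.226). Cd209a fell by 1.44 ± 0.21 (adjusted p = 0.0315), and Ccr7, with a higher ratio in every db/db mouse, had 0.41 ± 0.10 (adjusted p = 0.0904). Ccr7 was dim, with Cy5 intensities from 0.04 to 0.05 in db/+ and from 0.05 to 0.06 in db/db. Its difference is thus about 1 step of 0.01.

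**Figure D4:**
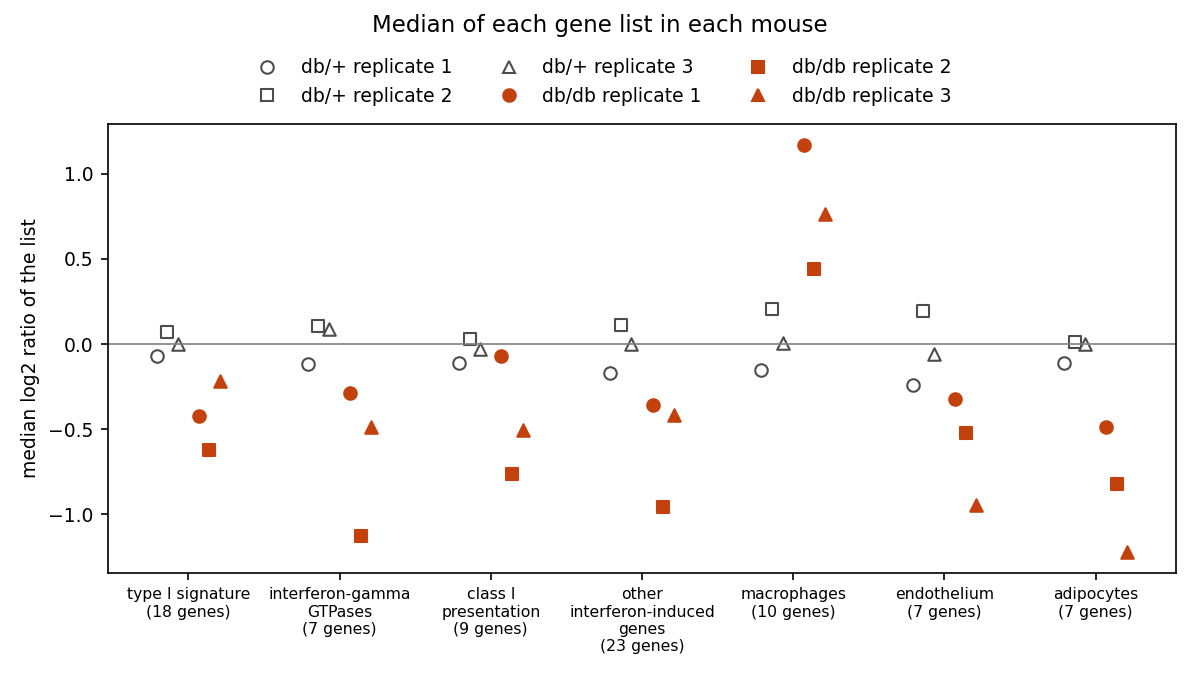
Median log2 ratio of the mouse (Cy5) over the lean pool (Cy3) for each gene list in each mouse; open grey points are db/+ and filled orange points db/db, with the shape giving the replicate and the number of genes under each list. The 3 interferon and class I groups and the other interferon-induced genes are lowest in db/db replicate 2, macrophage markers are highest in replicate 1, and adipocyte and endothelial markers are lowest in replicate 3.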

How the data were processed

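Total RNA of eWAT from 3 db/db and 3 db/+ mice was extracted with Trizol and amplified in 2 rounds, per the labels' protocols, and Agilent Feature Extraction 8.5.1.1 read the arrays, per the submitters' processing notes. Samples are labelled as biological replicates. The authors deposited a table with an intensity per channel and array and a p-value per array, which was not used. They also deposited log10 ratios of Cy5 over Cy3, which equalled the ratio of the table to within 0.005. Of the deposited intensities, 97.3% are whole multiples of 0.01. How background was corrected and arrays normalized was not given in the sources used here. In the table the db/db columns have no replicate number, so values of a numbered db/db mouse are the deposited log10 ratios turned to log2, and their Cy5 intensities are given as ranges.

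Log2 ratios were tested in R 4.3.3 with limma 3.58.1 (lmFit, then eBayes, without a block). P-values were adjusted over 17024 genes by Benjamini and Hochberg's method, with 0.05 as the threshold. A gene was its brightest probe measured on all 6 arrays, or else the brightest with at least 2 values per group. Errors are moderated standard errors. The fit was run on simulated data that gave both groups the same spread for each gene. That run does not cover the wider spread of the real db/db arrays. Symbols were updated through RefSeq, and RefSeq promoters were searched in Python 3.11.15.

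The members and lists were chosen with earlier results of these data known. Named were members past the threshold, the 5 largest fold changes of each group, B2m, H2-K1, H2-D1, Irf1, Irf7 and Stat2; of each pathway list those past the threshold, the 2 largest, Ifng, Nlrc5, Cxcl9 and Cxcl10; and of each marker list the 2 brightest. Not every gene so selected is given, Nlrc5 was not analysed here, 1 further gene of the rule is not reported here, and the remaining members are given to account for all of them. Jak2, Ifnar1, Ifnar2, Psmb5, Psmb6, Psmb7, Cd209a, Ccr7 and Egfl7 fall outside the rule and were picked with their values in view. Alternatives covered ratio source, offset, dim filter, normalization, channel, array weights, probe rule, replicate block, leaving out replicates and the epididymis covariate. Replicate numbers are common to both groups, but deviations of same-numbered mice correlated at -0.48, -0.41 and -0.02, so the numbers were not taken to pair mice.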

Additional observations from a re-analysis of the deposited data

How the results depend on the processing

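With 3 arrays per group and dim probes in steps of 0.01, the counts of calls moved widely. The 3 members called became 7 with a filter on dim probes, 5 with loess within arrays, 6 on the Cy5 channel alone, 30 with array weights, 1 when every probe was tested, 0 with quantile normalization and 5 with db/db replicate 1 alone, a fit that takes its spread from db/+. Leaving out a replicate gave between 0 and 11: 0 without any single db/+ mouse, 11 without db/db replicate 1, 1 without replicate 2 and 3 without replicate 3. Over all genes, 1150 calls became 0 with quantile normalization (2176 at an unadjusted p under 0.05), 6672 with array weights, 1792 with db/db replicate 1 alone and between 54 and 3426 without a replicate. The share of calls that were higher, 43.7%, moved both ways. It rose to 57.4% on leaving out db/+ replicate 3, to 58.4% on leaving out db/db replicate 2 and to 58.6% with the epididymis covariate. It fell to 38.3% on leaving out db/+ replicate 1, to 38.3% on the Cy5 channel alone and to 41.5% with a filter on dim probes. The 7 calls among other pathway genes became 0 with quantile normalization, 38 with array weights and between 0 and 21 without a replicate. With the replicate number as a block, limma called 0 genes, 0 members and 0 other pathway genes (3086 genes and 11 members at an unadjusted p under 0.05). Array weights ran from 0.164 to 5.45, so that fit rests largely on 1 db/db array. On that array Gbp3 had a Cy5 of 0.81 and a Cy3 of 3.20, which matches only the ratio of db/db replicate 2 (-1.98). Replicate 2 had the lowest db/db ratio in 23 of the 32 members with a negative fold change.

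At each setting tried, between 27 and 33 members had a negative fold change. The median of the type I signature was -0.60 with array weights and between -0.58 and -0.30 without a replicate, that of the GTPases -1.16 with array weights, and that of class I genes -0.024 with db/db replicate 1 alone. The sign of H2-K1 (0.028) and H2-D1 (0.071) turned with db/db replicate 1 alone. That of Ifna5 turned with quantile normalization (0.072), array weights (0.081) and db/db replicate 1 alone (0.064), and it ran from -0.11 to 0.064 over the fits without a replicate, turning without db/db replicate 3. Over the named members, 323 values under an alternative kept direction and side of the threshold, 27 lost the threshold, 43 gained it and 2 turned. The cause of these shifts was not tested.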
